A study of Homo sapiens with 24 samples.

Results

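The structural genes of caveolae were followed through knockdown of IGF2BP1 in 4 human cancer cell lines. The set holds 7 genes of the 58174 listed, all protein-coding, of 19799 protein-coding genes in all. CAV1, CAV2, EHD2 and PACSIN2 were selected on measured values, since they were picked with their response to the knockdown in view. CAVIN1, CAVIN2 and CAVIN3 were added by name under either of their symbols, whatever their values. The values of the first 4 genes are therefore a description and carry no test, whereas the cavins were tested.

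Total RNA was sequenced from A549 (lung adenocarcinoma), ES2 (ovarian clear cell adenocarcinoma), MV3 (amelanotic melanoma) and PANC1 (pancreatic ductal adenocarcinoma) cells. All are established lines. Each line was transfected either with a control siRNA at 15 nM (siC), derived from a worm microRNA, or with an IGF2BP1-specific siRNA pool at the same dose (siI1), with 3 libraries per group and 24 in all. RNA was harvested after 72 h, and after 96 h in PANC1. IGF2BP1 is an RNA-binding protein of embryonic and tumour cells that protects many mRNAs from decay, and the comparison addresses how transcript levels respond to its depletion.

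Caveolae are flask-shaped pits of the plasma membrane that buffer membrane tension and gather receptors and lipids. CAV1 inserts into the inner leaflet of the membrane and oligomerises to form the bulb, and CAV2 joins these oligomers and depends on CAV1 to leave the Golgi. The cavins coat the bulb from the cytosol, with CAVIN1 required for its formation, CAVIN2 linked to membrane curvature and CAVIN3 to interactions with signalling proteins. EHD2 is an ATPase that forms a ring at the neck and holds the pit at the surface, and PACSIN2 is an F-BAR protein that bends membrane at the neck.

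CAV1 and CAV2 are neighbours on the same strand of chromosome 7, and their promoters are shown because the results turn on how these genes moved apart. In RefSeq (GRCh38.p14) the most upstream start site of CAV2 lay 25.3 kb before that of CAV1. Each line below runs 5′ to 3′ from 250 bases before to 50 bases after the most upstream start site. The windows are chr7:116524759-116525058 (plus strand) for CAV1, chr7:116499488-116499787 (plus strand) for CAV2 and chr2:191847039-191847338 (minus strand) for CAVIN2, which is shown as the member that was expressed in only some of the lines. Capitals mark matches on either strand to any of 8 motifs. These were the GC box read as GGGCGG, the TEAD motif read as CATTCC and the AP-1 motif read as TGANTCA. The others were the CCAAT box, the TATA box read as TATAAA, the E box read as CACGTG, the forkhead core read as TGTTTAC and the CArG box.
CAV1: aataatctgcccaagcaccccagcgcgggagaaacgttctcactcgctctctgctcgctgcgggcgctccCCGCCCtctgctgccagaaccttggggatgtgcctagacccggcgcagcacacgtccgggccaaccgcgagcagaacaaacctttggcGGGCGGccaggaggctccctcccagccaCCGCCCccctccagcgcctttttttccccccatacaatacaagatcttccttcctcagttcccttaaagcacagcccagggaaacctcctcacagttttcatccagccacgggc
CAV2: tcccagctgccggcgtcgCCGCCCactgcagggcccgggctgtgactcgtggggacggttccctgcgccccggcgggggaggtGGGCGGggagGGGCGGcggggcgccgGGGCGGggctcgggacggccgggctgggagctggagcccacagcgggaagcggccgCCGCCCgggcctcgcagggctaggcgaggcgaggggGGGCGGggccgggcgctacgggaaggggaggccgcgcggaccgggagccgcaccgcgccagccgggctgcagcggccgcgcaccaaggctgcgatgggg
CAVIN2: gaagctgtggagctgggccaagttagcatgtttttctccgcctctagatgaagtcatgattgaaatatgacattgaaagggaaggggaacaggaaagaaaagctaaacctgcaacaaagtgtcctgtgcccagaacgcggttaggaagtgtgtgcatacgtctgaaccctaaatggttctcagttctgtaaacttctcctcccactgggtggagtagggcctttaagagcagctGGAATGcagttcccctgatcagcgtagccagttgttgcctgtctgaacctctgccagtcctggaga

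The capitals in CAV1 and CAV2 are all GC boxes, 3 in the CAV1 window and 6 in the CAV2 window, and the motif was held by 45.0% of all 35116 RefSeq promoter windows. The only match in the CAVIN2 window was 1 TEAD motif, held by 14% of windows. CAV2 had the window richest in G and C, at 82.7% with 43 CpG dinucleotides, more than 99.1% of the windows. CAV1 had 62.3% and 19 CpG, and CAVIN2 49.3% and 5 CpG, against a median of 58.7% and 14 CpG. The EHD2 window had 71.0% and 30 CpG and held 1 GC box. The first of 6 windows of PACSIN2 had 68.7% and 27 CpG and held 2 GC boxes and 3 CCAAT boxes, a motif found in 34.6% of windows. Promoters of 5 of the 7 members were matched, and CAVIN1 and CAVIN3 are named only. A match describes the letters of the window and says nothing about binding.

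Values are FPKM, which divide the reads of a gene by its length and by the size of the library, so that levels of different genes can be set side by side within a library. Log2 fold changes compare siI1 with siC on the log2(FPKM + 0.5) scale, which understates changes of genes with low values. Errors of levels are SD over 3 libraries and errors of fold changes are SE. Libraries had 3105215 to 4553326 reads assigned to genes in A549, 6421764 to 8419467 in ES2, 15572492 to 20082702 in MV3 and 6532175 to 8472851 in PANC1. The targeted gene, IGF2BP1, fell in every line, with log2 fold changes between -1.83 (PANC1) and -1.32 (A549) and limma adjusted p-values from 5.93e-05 to 0.000319. Keratin and cadherin markers of epithelial cells were present in A549 and PANC1. Of the 4 lung markers examined, 3 were at 0 in A549 and none reached 1 FPKM. None of 6 melanocyte markers reached 1 FPKM in MV3, and SOX10 was at 0 in all lines. PAX8, a marker of ovarian carcinoma, stayed under 1 FPKM in ES2. The PANC1 libraries stood apart in scale: FPKM values summed to 526337 to 756439 in siC and to 977547 to 1191706 in siI1. After rescaling to the same sum, the median log2 fold change over all PANC1 genes tested was -0.68 in place of -0.04, so the members' changes in this line are also given relative to that median. These are bulk samples, in which fewer expressing cells and less RNA per cell cannot be told apart.

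CAV1 was among the most abundant mRNAs in every line, above at least 98.4% of protein-coding genes in the siC libraries. Its mean siC level was 176 ± 2.83 FPKM in ES2, 131 ± 3.41 in MV3, 96.3 ± 10.2 in PANC1 and 83.6 ± 3.02 in A549 (SD, n = 3 each). No neighbours in this order overlapped. The 4 tables were normalised separately, so this order is set across tables and was not tested.

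After knockdown CAV1 was higher in A549 and ES2, hardly different in MV3 and lower in PANC1. In A549 the siC libraries had 82.5, 87.0 and 81.3 FPKM and the siI1 libraries 122, 124 and 134 FPKM. The groups did not overlap, and the log2 fold change was 0.60 ± 0.05 (SE), a 1.52-fold rise of the mean. In ES2 the siC libraries had 175, 173 and 179 FPKM and the siI1 libraries 285, 280 and 296 FPKM. Every ES2 knockdown library was above every control, with a log2 fold change of 0.71 ± 0.04 (SE).

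In MV3 the siC libraries had 135, 130 and 129 FPKM of CAV1 and the siI1 libraries 134, 136 and 148 FPKM. These groups overlapped, and the log2 fold change was 0.09 ± 0.05 (SE), ranging from 0.04 without siI1 replicate 3 to 0.24 under quantile normalisation. In PANC1 the siC libraries had 88.0, 108 and 93.2 FPKM and the siI1 libraries 72.0, 69.9 and 81.6 FPKM. All PANC1 knockdown libraries were below all controls, with a log2 fold change of -0.37 ± 0.10 (SE). Relative to the median of all genes the PANC1 difference was -0.33 on the deposited scale, -0.36 after scaling by total reads and -0.44 after rescaling to the same sum.

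CAV2 was higher after knockdown in all 4 lines on the deposited scale, and in none did the groups overlap. Its mean siC level was 25.6 ± 1.06 FPKM in PANC1, 13.0 ± 1.86 in A549, 8.26 ± 1.11 in ES2 and 7.90 ± 0.188 in MV3 (SD, n = 3 each), and the ES2 and MV3 libraries overlapped. The largest rise was in ES2, where the siC libraries had 7.76, 7.48 and 9.53 FPKM and the siI1 libraries 37.7, 41.3 and 41.2 FPKM. This was a 4.85-fold rise of the mean, a log2 fold change of 2.22 ± 0.10 (SE).

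In A549 the siC libraries had 13.2, 14.7 and 11.0 FPKM of CAV2 and the siI1 libraries 27.6, 28.7 and 26.1 FPKM, a log2 fold change of 1.06 ± 0.11 (SE). In MV3 they had 8.01, 7.68 and 8.01 FPKM and 11.2, 10.9 and 11.1 FPKM, a log2 fold change of 0.47 ± 0.04 (SE). In PANC1 the siC libraries had 25.4, 26.7 and 24.6 FPKM and the siI1 libraries 38.4, 39.3 and 36.3 FPKM, a log2 fold change of 0.56 ± 0.06 (SE). MV3 thus had the smaller rise on the deposited scale, but after scaling by total reads it had 0.52 and PANC1 0.40. Rescaling to the same sum turned the PANC1 value to -0.18, which still lay 0.50 above the all-gene median under that scaling. CAV3, the caveolin of muscle, had at most 1 read in any library.

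**Figure D1:**
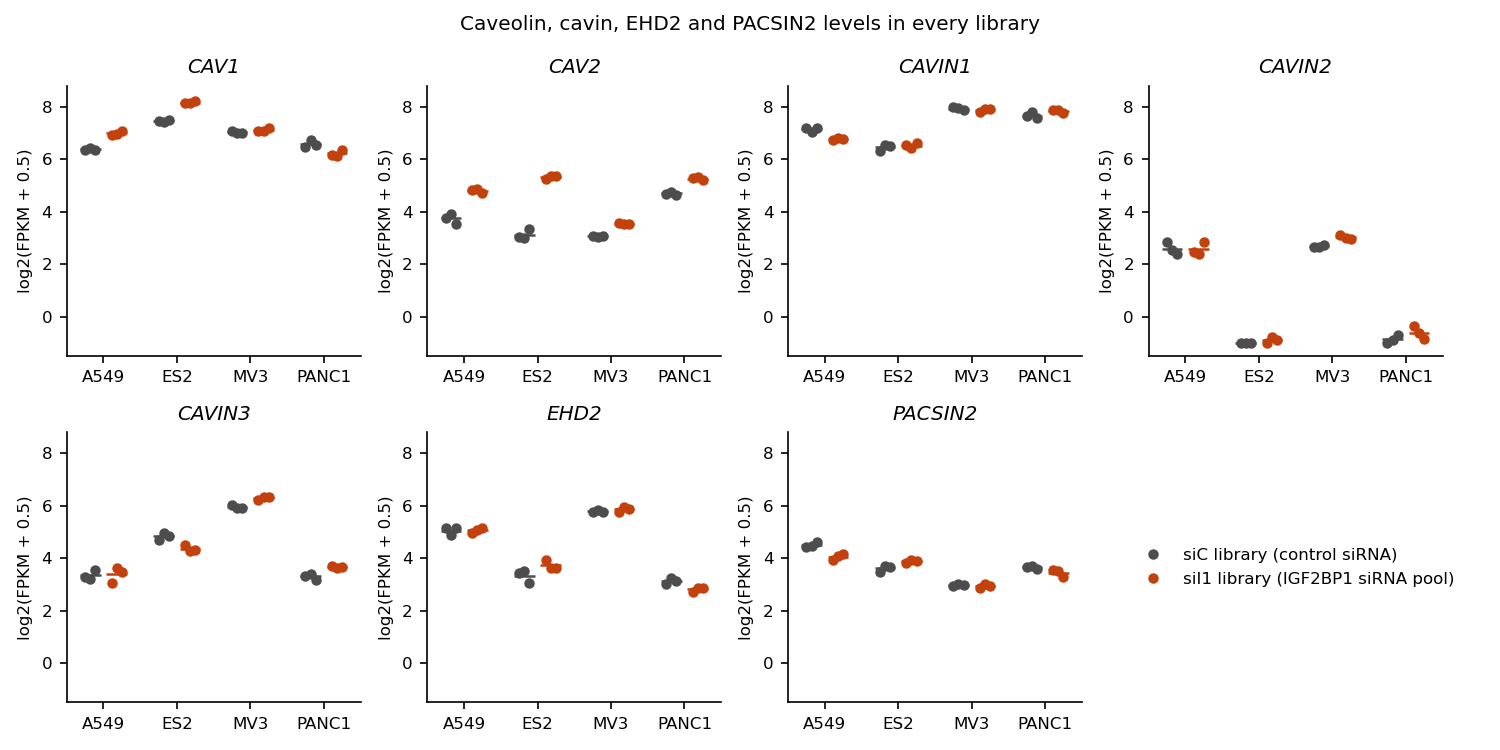
Level of each member in each library as log2(FPKM + 0.5) on the vertical axis, by cell line on the horizontal axis, with siC libraries in grey, siI1 libraries in orange and bars at the mean of 3 libraries. CAV2 is higher in siI1 in all 4 lines, CAV1 is higher in A549 and ES2 and lower in PANC1, and CAVIN2 lies near the floor in ES2 and PANC1.

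The log2 fold change of CAV2 was above that of CAV1 in every line, including PANC1, where CAV1 fell. The balance of the pair thus moved the same way throughout. A ratio of 2 genes within a library does not depend on the scaling of that library. In ES2 the ratio of CAV1 to CAV2 was 22.6, 23.1 and 18.8 in siC and 7.57, 6.79 and 7.19 in siI1. In MV3 its mean went from 16.6 ± 0.448 to 12.6 ± 0.701 (SD, n = 3 each). In A549 the means were 6.50 ± 0.767 and 4.63 ± 0.455 (SD, n = 3 each). In PANC1 they were 3.76 ± 0.290 and 1.97 ± 0.248 (SD, n = 3 each). The siC and siI1 libraries did not overlap in any line. As both genes were picked for their response, the ratios are a description as well.

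**Figure D2:**
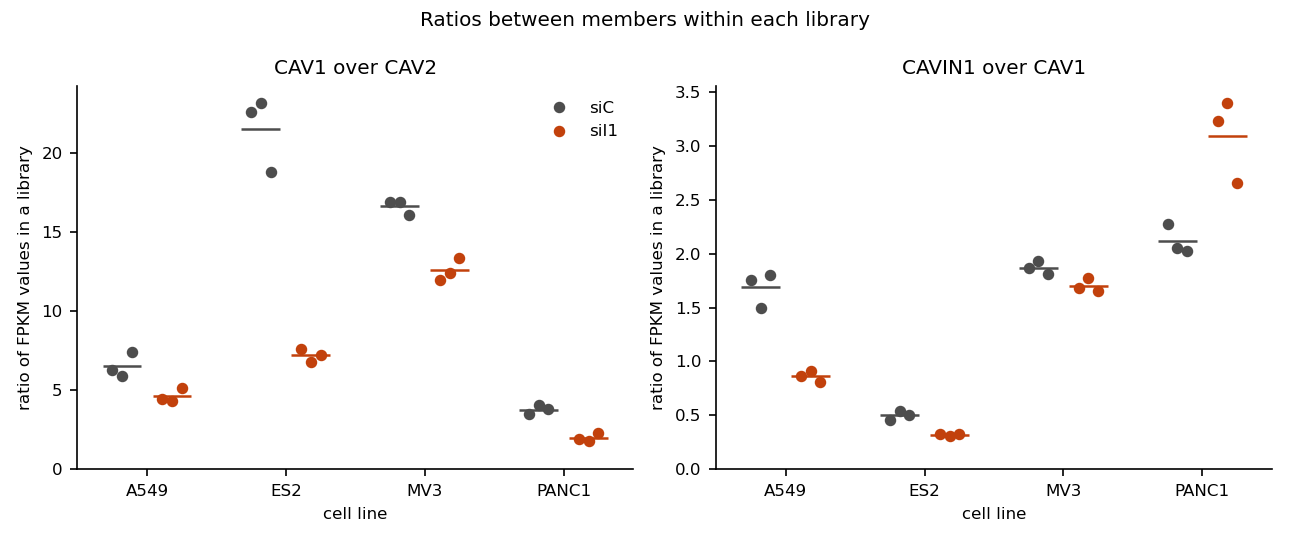
Ratio of FPKM values within each library (vertical axes) by cell line, for CAV1 over CAV2 on the left and CAVIN1 over CAV1 on the right, with siC in grey, siI1 in orange and bars at the mean of 3 libraries. The CAV1 to CAV2 ratio is lower in siI1 in all 4 lines, with ES2 means of 21.5 and 7.18, and the CAVIN1 to CAV1 ratio is lower in A549, ES2 and MV3 and higher in PANC1.

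The cavins did not share one direction. Of the 3 cavins in the set, 1 fell in A549, 1 fell in ES2, 2 rose in MV3 and 1 rose in PANC1 at a limma adjusted p under 0.05. Over all genes tested, 5.93% were higher and 7.83% lower in A549, 10.5% and 13% in ES2, 16.3% and 19.5% in MV3, and 11.3% and 13.4% in PANC1. No such count is given for CAV1, CAV2, EHD2 and PACSIN2, which were picked for their response. CAVIN2 was too low to be tested in ES2 and PANC1.

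CAVIN1, which caveolae cannot form without, was the most abundant member in the siC libraries of A549, MV3 and PANC1 and second to CAV1 in those of ES2. Its siC level was 245 ± 10.3 FPKM in MV3, 204 ± 16.6 in PANC1, 141 ± 8.94 in A549 and 87.8 ± 7.03 in ES2 (SD, n = 3 each), with no overlap between neighbours. It fell in A549, from 145, 131 and 147 FPKM in siC to 106, 113 and 108 FPKM in siI1. The groups did not overlap, and the log2 fold change was -0.36 ± 0.06 (SE; limma adjusted p 0.0131, and 0.0541 without siC replicate 1). The other lines gave 0.06 in ES2 (limma adjusted p 0.612), -0.05 in MV3 (0.487) and 0.17 in PANC1 (0.159), each with overlapping groups. The MV3 value was 0.15 under quantile normalisation (adjusted p 0.00187), and the PANC1 value was -0.58 after rescaling to the same sum (adjusted p 0.00496), 0.10 above the all-gene median. Under quantile normalisation the PANC1 value was -0.09.

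The CAVIN1 to CAV1 ratio was lower after knockdown in 3 lines, although CAVIN1 itself was called lower only in A549. The ratio of CAVIN1 to CAV1 was 1.76, 1.5 and 1.81 in the A549 siC libraries and 0.867, 0.916 and 0.806 in the siI1 libraries. Its mean moved from 0.50 ± 0.0419 to 0.319 ± 0.0135 in ES2 and from 1.87 ± 0.0595 to 1.71 ± 0.0647 in MV3 (SD, n = 3 each). In PANC1 it moved the other way, from 2.12 ± 0.140 to 3.10 ± 0.392 (SD, n = 3 each). No groups overlapped. A549 thus had more CAVIN1 than CAV1 message in every control library and less in every knockdown library. As CAV1 was picked for its response, these ratios are a description as well.

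The longest 3'UTR of CAVIN3 was 220 nt, and those of the other members ran from 1592 to 2423 nt. The median over 9596 protein-coding genes tested in all lines was 1536.5 nt, and a link between length and response was not tested. CAVIN3 passed the test in 3 lines. In ES2 it fell from 25.3, 30.8 and 28.5 FPKM to 22.0, 18.8 and 19.7 FPKM, a log2 fold change of -0.48 ± 0.09 (SE; limma adjusted p 0.0129, and 0.0504 without siI1 replicate 3). In MV3 it rose from 65.1, 60.7 and 60.3 FPKM to 73.7, 79.9 and 81.0 FPKM, a log2 fold change of 0.33 ± 0.05 (SE; limma adjusted p 0.00323). Neither pair of groups overlapped. In PANC1 it rose from 9.64, 10.2 and 8.62 FPKM to 12.6, 11.7 and 12.3 FPKM, a log2 fold change of 0.35 ± 0.08 (SE; limma adjusted p 0.0198).

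The PANC1 call of CAVIN3 rested on 116 to 145 reads per library and was the least secure. The adjusted p was 0.0613 without siC replicate 1, 0.0701 without siI1 replicate 1, 0.0604 without siI1 replicate 3 and 0.10 after scaling by total reads. Rescaling to the same sum gave -0.37, still 0.31 above the all-gene median. In A549 the siC libraries had 9.24, 8.72 and 11.3 FPKM of CAVIN3 and the siI1 libraries 7.81, 11.8 and 10.6 FPKM, on 42 to 90 reads. These overlapped, with a limma adjusted p of 0.929. Control levels were 62.1 ± 2.68 FPKM in MV3, 28.2 ± 2.75 in ES2, 9.76 ± 1.38 in A549 and 9.48 ± 0.797 in PANC1 (SD, n = 3 each), and A549 and PANC1 overlapped. An antisense gene, AC068733.3, shares 571 exonic bases with CAVIN3, but had at most 9 reads in any library.

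CAVIN2 was present in only 2 of the lines. In MV3 it rose from 5.84, 5.77 and 6.08 FPKM to 8.19, 7.55 and 7.26 FPKM, a log2 fold change of 0.35 ± 0.06 (SE; limma adjusted p 0.00398), without overlap. In A549 the siC libraries had 6.61, 5.37 and 4.80 FPKM and the siI1 libraries 5.01, 4.77 and 6.64 FPKM, a log2 fold change of -0.03 ± 0.17 (SE; limma adjusted p 0.933). The A549 values overlapped and came from 52 to 87 reads. In ES2 no siC library had a read and the siI1 libraries had at most 2, and in PANC1 libraries had 0 to 6 reads. Neither line was tested, and no change was detectable there at this depth. CAVIN4, the cavin of muscle, stayed at 2 to 62 reads per library and did not pass the test in A549, MV3 or PANC1 (limma adjusted p 0.646 to 0.843).

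**Figure D3:**
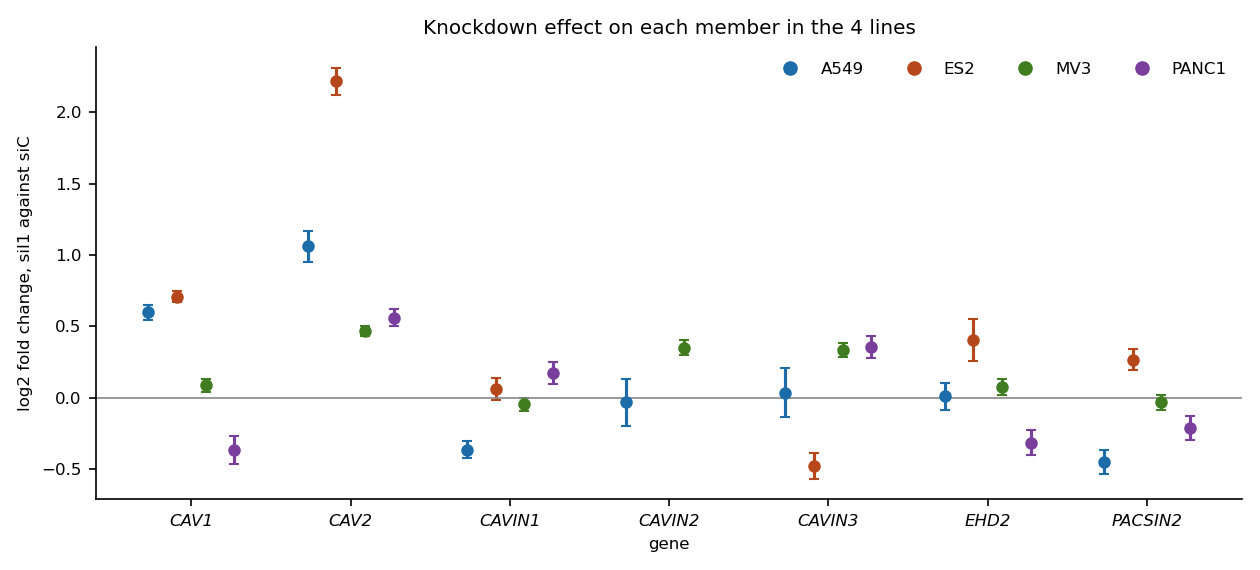
Log2 fold change of siI1 against siC on the log2(FPKM + 0.5) scale (vertical axis) for each member (horizontal axis), with 1 colour per cell line and bars of 1 SE from the limma fit. CAV2 is above 0 in all 4 lines, from 0.47 in MV3 to 2.22 in ES2, whereas each of CAV1, CAVIN3, EHD2 and PACSIN2 has lines on both sides of 0. PANC1 values shift by about the median of all genes under same-sum rescaling and total-read scaling, and CAVIN2 is shown only where it was tested.

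EHD2, the neck ATPase, had the sign of CAV1 in ES2 and PANC1. In ES2 the siC libraries had 10.5, 10.8 and 7.81 FPKM and the siI1 libraries 15.0, 12.0 and 11.9 FPKM, a log2 fold change of 0.40 ± 0.15 (SE). In PANC1 they had 7.61, 9.10 and 8.26 FPKM and 6.04, 6.87 and 6.86 FPKM, a log2 fold change of -0.32 ± 0.09 (SE). This PANC1 value lay -0.28 from the all-gene median on the deposited scale and -0.34 from it after rescaling to the same sum. The groups were apart in both lines, although the ES2 value moved between 0.26 and 0.49 when single siC libraries were left out. In A549 the siC libraries had 34.8, 29.0 and 35.2 FPKM and the siI1 libraries 31.0, 32.9 and 35.5 FPKM, a log2 fold change of 0.01 ± 0.09 (SE). In MV3 they had 54.5, 57.4 and 53.3 FPKM and 54.2, 61.5 and 58.4 FPKM, a log2 fold change of 0.07 ± 0.05 (SE). Both of these overlapped. Control levels were 55.1 ± 2.1 FPKM in MV3, 33.0 ± 3.44 in A549, 9.71 ± 1.66 in ES2 and 8.32 ± 0.748 in PANC1 (SD, n = 3 each), with ES2 and PANC1 overlapping.

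PACSIN2 was lower after knockdown in A549 and PANC1 and higher in ES2. In A549 the siC libraries had 21.2, 21.5 and 24.1 FPKM and the siI1 libraries 14.7, 16.5 and 17.3 FPKM, a log2 fold change of -0.45 ± 0.09 (SE). In ES2 they had 10.7, 12.7 and 12.1 FPKM and 13.8, 14.9 and 14.2 FPKM, a log2 fold change of 0.27 ± 0.07 (SE). In PANC1 they had 12.3, 12.7 and 11.7 FPKM and 11.1, 11.1 and 9.37 FPKM, a log2 fold change of -0.21 ± 0.08 (SE). Without siI1 replicate 3 it was -0.14, and after scaling by total reads it was -0.37. Relative to the all-gene median it was -0.18 on the deposited scale and -0.26 after rescaling to the same sum. None of these 3 pairs overlapped, whereas in MV3 the groups did, at 7.13, 7.54 and 7.48 FPKM in siC and 6.79, 7.57 and 7.28 FPKM in siI1. Control levels were 22.3 ± 1.60 FPKM in A549, 12.2 ± 0.518 in PANC1, 11.8 ± 0.998 in ES2 and 7.38 ± 0.217 in MV3 (SD, n = 3 each), with PANC1 and ES2 overlapping. ARFGAP3 shares 155 exonic bases with PACSIN2 on the same strand, so reads from that stretch could have been counted for either gene. Its own log2 fold changes were 0.56 in ES2, 0.09 in A549 and -0.11 in PANC1.

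The difference between lines was tested for the cavins and for the wider caveola lists, with 1 fit over the 24 libraries. CAVIN1 and CAVIN3 differed between lines in their response, with limma F tests giving adjusted p-values of 0.00121 and 0.00132. Of the 16 list genes tested in all lines, without the 4 members picked for their response, 11 differed. Over all 12816 genes tested this way, 45% differed. The lists were drawn up with earlier results of these data known, so the 2 shares are set side by side only. CAVIN2 was not tested, as it was too low in ES2 and PANC1. No p is given for CAV1, CAV2, EHD2 or PACSIN2, whose responses are side by side above.

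The wider lists held 30 genes: 3 caveolins, 4 cavins, 4 EHD ATPases, 3 pacsins, 6 linkers and scission factors, 2 flotillins and 8 signalling clients. The counts here leave out CAV1, CAV2, EHD2 and PACSIN2, which leaves 26 genes. All gene lists here were drawn up with earlier results of these data known, and their counts and p-values carry that limit. In A549, 4 of 21 tested were higher and 5 lower, where the shares over all genes were 5.93% and 7.83%. In ES2 there were 4 and 4 of 19 (10.5% and 13% over all genes), in MV3 6 and 4 of 20 (16.3% and 19.5%) and in PANC1 5 and 2 of 18 (11.3% and 13.4%). Their median log2 fold change was 0.05 in PANC1, 0.02 in MV3, 0.06 in ES2 and -0.03 in A549, beside -0.04, 0.01, -0.02 and -0.01 over all genes tested. The lists thus moved in both directions in every line on the deposited scale. The split between higher and lower calls depended on the scaling. After rescaling to the same sum there were 2 higher and 6 lower in A549, 6 and 2 in ES2 and 0 and 13 in PANC1, where scaling by total reads gave 2 and 4. Quantile normalisation gave 10 higher and 3 lower in MV3. The shares over all genes under these other scalings are not given, so nothing is read about the lists from these counts. In PANC1 the all-gene median log2 fold change was -0.68 under same-sum rescaling and -0.18 under total-read scaling. Without siC replicate 1 the 9 calls in A549 became 5, and without siI1 replicate 3 the 8 in ES2 became 5. In PANC1 the 7 calls became 5 when siC replicate 2 was left out, 3 when siI1 replicate 1 was left out and 4 for each of the other 4 libraries.

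**Figure D4:**
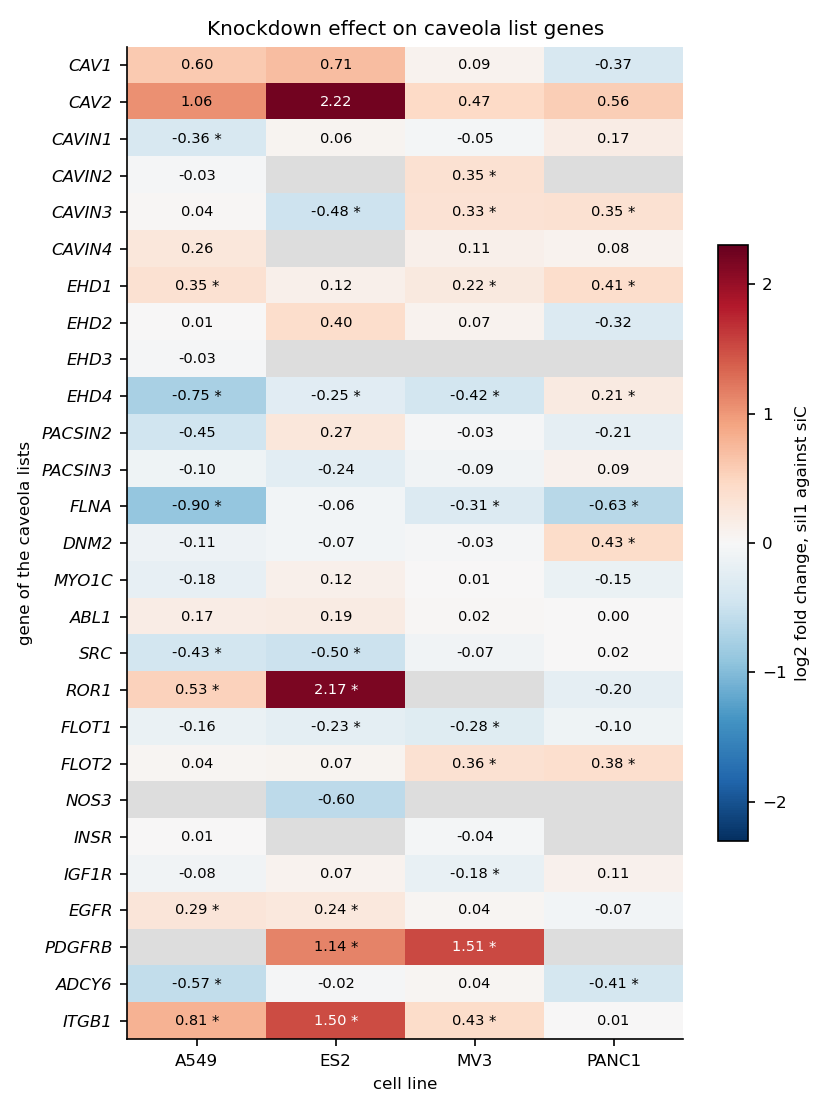
Log2 fold change of siI1 against siC, as colour and number, for each gene of the caveola lists (rows) in each cell line (columns), with grey where a gene was too low to test and an asterisk at a limma adjusted p under 0.05. CAV1, CAV2, EHD2 and PACSIN2 carry no asterisk because they were picked on these values. ITGB1 is red in A549, ES2 and MV3 and near 0 in PANC1, and FLNA is blue in A549, MV3 and PANC1. PANC1 signs depend on the scaling for most genes shown in red.

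Among the EHD ATPases, the relatives of EHD2 moved apart. EHD4, which acts on endosomes, fell in A549 (log2 fold change -0.75 ± 0.10 SE, limma adjusted p 0.00713), ES2 (-0.25 ± 0.04 SE, 0.00585) and MV3 (-0.42 ± 0.04 SE, 0.000852). In PANC1 it was 0.21 ± 0.06 (SE; limma adjusted p 0.0493), a call that was kept in 1 of the 6 fits without a library and was -0.53 after rescaling to the same sum. EHD4 differed between lines (limma F test, adjusted p 2.91e-07). EHD1, an ATPase of the recycling endosome, rose in PANC1 (0.41 ± 0.07 SE, limma adjusted p 0.00823), where the same-sum value was -0.33. It also passed in MV3 (0.22, adjusted p 0.0242) and A549 (0.35, adjusted p 0.0418), but the A549 call was lost in all 6 fits without a library and the MV3 call in 4.

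Of the linkers and scission factors, FLNA passed the test in 3 lines. FLNA encodes filamin A, which ties CAV1 to actin filaments. Its A549 level dropped from 398 ± 22.0 FPKM in siC to 213 ± 7.99 FPKM in siI1 (SD, n = 3 each). In MV3 it went from 258 ± 8.51 to 208 ± 11.3 FPKM, and in PANC1 from 146 ± 5.05 to 94.3 ± 5.05 FPKM (SD, n = 3 each). The log2 fold changes were -0.90, -0.31 and -0.63, with limma adjusted p-values of 0.00086, 0.00456 and 0.00172, kept in all fits without a library. In ES2, where CAV1 and CAV2 had their largest rises, FLNA was at 131 ± 8.62 and 126 ± 6.85 FPKM (SD, n = 3 each), with a limma adjusted p of 0.604. The difference of FLNA between lines passed the test (adjusted p 1.48e-06).

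SRC, the kinase that phosphorylates CAV1, fell in A549 (log2 fold change -0.43, limma adjusted p 0.00501) and ES2 (-0.50, 0.00629). DNM2, the dynamin that severs membrane necks, rose in PANC1 (0.43, limma adjusted p 0.00601), where the same-sum value was -0.30. ROR1, a receptor that binds CAV1 and CAVIN1, had its clearest rise in ES2, with 0.646 ± 0.115 FPKM in siC and 4.67 ± 0.617 FPKM in siI1 (SD, n = 3 each; log2 fold change 2.17, limma adjusted p 0.000336). Its rise in A549 (0.53, adjusted p 0.0166) was kept in 2 of 6 fits without a library. The flotillins, scaffold proteins of other membrane domains, gave no call in A549. FLOT2 rose in MV3 (0.36, limma adjusted p 0.00573) and, with 1 of 6 fits without a library keeping it, in PANC1 (0.38, adjusted p 0.0224), where the same-sum value was -0.36. FLOT1 was lower in ES2 (-0.23, adjusted p 0.0258, kept in 0 of 6) and MV3 (-0.28, adjusted p 0.0347, kept in 2 of 6).

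Among the signalling clients, receptors and enzymes reported to reside in caveolae, ITGB1 rose in 3 lines. ITGB1 encodes the integrin beta-1 chain. Its A549 level was 332 ± 18.5 FPKM in siC and 580 ± 25.3 FPKM in siI1 (SD, n = 3 each). In ES2 the levels were 84.5 ± 7.23 and 240 ± 8.28 FPKM, and in MV3 130 ± 0.852 and 175 ± 5.2 FPKM (SD, n = 3 each). The limma adjusted p-values were 0.00127, 0.000116 and 0.000291. In PANC1 its log2 fold change was 0.01, and the lines differed (limma F test, adjusted p 1.07e-09). EGFR rose in A549 (0.29, limma adjusted p 0.0123, and 0.0532 without siC replicate 1) and ES2 (0.24, 0.0124). PDGFRB, a growth factor receptor of mesenchymal cells, rose in MV3 from 0.791 ± 0.0833 to 3.17 ± 0.0647 FPKM (SD, n = 3 each; limma adjusted p 0.000166) and, at lower levels of 0.147 ± 0.0277 and 0.932 ± 0.147 FPKM, in ES2 (SD, n = 3 each; 0.0164). ADCY6, an adenylyl cyclase, fell in A549 (-0.57, limma adjusted p 0.00765) and PANC1 (-0.41, 0.0277, kept in 1 of 6 fits without a library).

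The clathrin coat, the other main route of uptake, was set beside caveolae with a list of 18 genes. In A549, 1 was higher and 4 lower, in ES2 0 and 4, in MV3 3 and 3 and in PANC1 5 and 2, with all 18 tested in each line. Over all genes the shares higher and lower were 5.93% and 7.83% in A549, 10.5% and 13% in ES2, 16.3% and 19.5% in MV3 and 11.3% and 13.4% in PANC1. CLTC, the clathrin heavy chain, fell in all 4 lines, with log2 fold changes of -0.54 (A549), -0.42 (ES2), -0.43 (MV3) and -0.57 (PANC1) and limma adjusted p-values from 0.00127 to 0.0165. The ES2 call was kept in 3 of 6 fits without a library. Its response did not pass the limma F test of a difference between lines (adjusted p 0.564). Of the 18 clathrin genes 10 passed it, beside 45% of all 12816 genes tested this way. CLTB, a light chain, fell in ES2 (-0.42) and MV3 (-0.47), with limma adjusted p-values of 0.000818 and 0.00529. EPN2, an adaptor that binds clathrin, rose in A549 (0.66, limma adjusted p 0.00264), MV3 (0.31, 0.00208) and PANC1 (0.38, 0.0202), and AP2M1, a subunit of the AP-2 adaptor, rose in PANC1 (0.44, 0.00399). In PANC1 the same-sum values of EPN2 and AP2M1 were both -0.31.

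CAV1 (hg38 chr7:116524994-116561179) and CAV2 (chr7:116287380-116508541, with alternative upstream starts) sit between TES and MET on chromosome 7, in GENCODE release 44. To see whether the stretch moved as a block, the 9 neighbours were described. TFEC, WNT2, ASZ1 and CFTR were too low to test in every line. Of the other 5, none was higher and 1 lower in A549 (5 tested), none higher and 1 lower in ES2 (5 tested), none higher and 3 lower in MV3 (4 tested) and 1 higher and 1 lower in PANC1 (5 tested). The share of all genes that was lower ran from 7.83% (A549) through 13% (ES2) and 13.4% (PANC1) to 19.5% (MV3), and with 4 or 5 neighbours tested nothing is read from these counts. No neighbour rose with CAV1 and CAV2 in A549 or ES2 at the threshold. Without passing it, CAPZA2 was at 0.21 in A549 (limma adjusted p 0.154) and 0.195 in ES2 (0.244). MDFIC was at 0.21 in ES2 (limma adjusted p 0.0994), and MET was above 0 in A549. Below 0 were MDFIC, TES and ST7 in A549 and TES, MET and ST7 in ES2.

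TES, whose start lies at -314.5 kb relative to that of CAV1 and which encodes a focal adhesion protein, fell in A549 from 23.8 ± 1.85 to 14.4 ± 0.894 FPKM (SD, n = 3 each; limma adjusted p 0.00384). MET, the receptor of hepatocyte growth factor, starts 147.2 kb after CAV1. It fell in PANC1 from 41.9 ± 2.41 to 22.2 ± 1.02 FPKM and in MV3 from 41.9 ± 0.226 to 29.4 ± 0.852 FPKM (SD, n = 3 each), with log2 fold changes of -0.90 and -0.50 and limma adjusted p-values of 0.000869 and 0.000185. In ES2 it was lower by less (-0.17, adjusted p 0.0253, kept in 1 of 6 fits without a library) and in A549 it was 0.12 (adjusted p 0.195). MET differed between lines (limma F test, adjusted p 4.04e-09). MDFIC, a regulator of transcription factors, and ST7, a candidate tumour suppressor, fell in MV3 (-0.40, limma adjusted p 0.00335, and -0.29, 0.00526). CAPZA2, which encodes an actin capping subunit, was at 0.19 in PANC1 (adjusted p 0.0431, kept in 0 of 6 fits without a library and -0.55 after rescaling to the same sum).

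**Figure D5:**
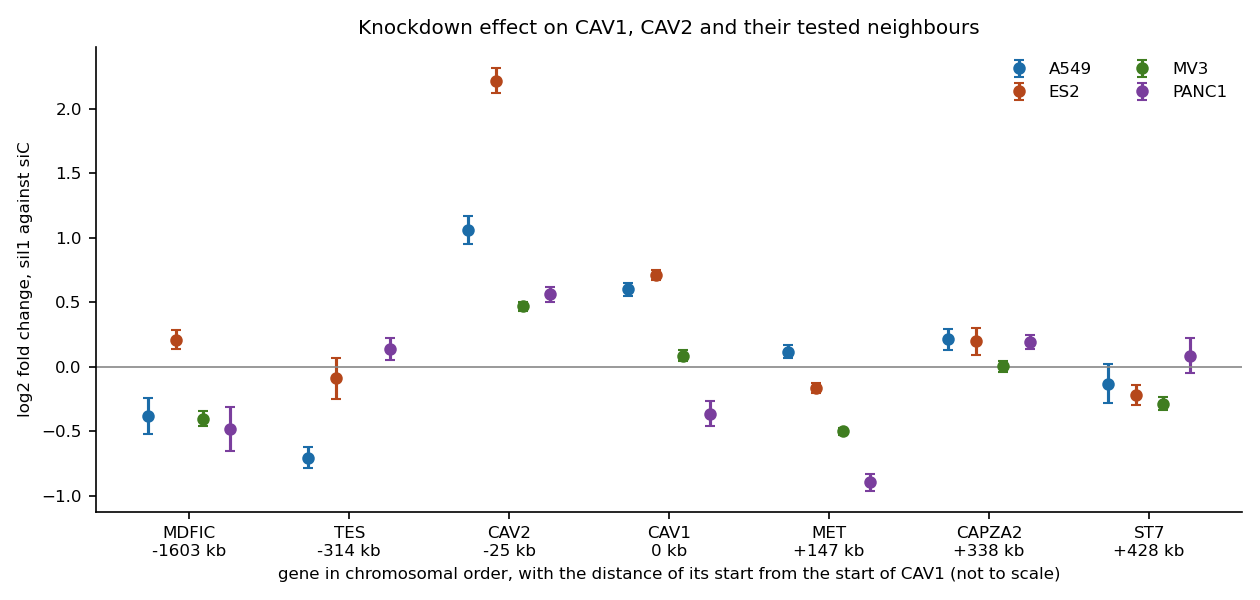
Log2 fold change of siI1 against siC with bars of 1 SE (vertical axis) for CAV1, CAV2 and their 5 tested neighbours in chromosomal order, each with the distance of its RefSeq start from that of CAV1 in kb (horizontal axis, not to scale), with 1 colour per cell line. CAV2 is above 0 in all lines, whereas TES and MET on either side lie at or below 0.14 in every line where they were tested, which leaves out TES in MV3. CAPZA2 lies between 0.001 in MV3 and 0.21 in A549, and MDFIC is above 0 in ES2 only. CAV2, TES, ST7 and CAPZA2 in PANC1 turn below 0 after rescaling to the same sum.

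Genes with a pattern like that of the caveolins were named by Pearson's r over the 24 libraries, each line centred on its own mean, among 9649 other protein-coding genes tested in all lines. These values share the libraries and the knockdown contrast, so they are a description. Nearest to CAV1 were HIF1A (r 0.96), CFL2 (0.94), SPPL2A (0.93), SLC38A9 (0.92) and TFPI (0.92). HIF1A, the oxygen-regulated transcription factor subunit, had 0.47 in A549, 0.54 (ES2), -0.02 (MV3) and -0.38 (PANC1) as its log2 fold changes. TFPI, an inhibitor of coagulation, had 0.64, 0.79, 0.26 and -0.72 in the same order. Nearest to CAV2 were KDELR2 (0.98), DNAJB4 (0.98), ABCC4 (0.97), P3H2 (0.97) and ITGB1 (0.97). DNAJB4, a heat shock co-chaperone, had log2 fold changes of 0.49, 1.36, 0.25 and 0.43 in that order, with -0.26 in PANC1 after rescaling to the same sum. P3H2, a collagen prolyl hydroxylase, had 0.66, 1.27, 0.26 and 0.29, with -0.45 in PANC1 under that rescaling. CAV1 and CAV2 had an r of 0.77 with each other, which placed CAV2 at rank 162 for CAV1 and CAV1 at rank 392 for CAV2. With CAV1, r was 0.60 for EHD2, -0.03 for PACSIN2, -0.44 for CAVIN1 and -0.45 for CAVIN3.

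Markers of other cell types were read beside these changes. The summed level of 6 epithelial markers was 1144 to 1249 FPKM in A549 siC and 526 to 557 in siI1, with 5 of 6 lower, and 1342 to 1765 in PANC1 siC and 2061 to 2214 in siI1, with 2 higher and 2 lower. The PANC1 rise is given on the deposited scale only, where all FPKM values summed to 526337 to 756439 in siC and 977547 to 1191706 in siI1. In ES2 the epithelial sum was 151 to 167 FPKM in siC and 194 to 222 in siI1, with 2 of 6 higher and KRT19 at 0 in all siC libraries. In MV3 it was 22.7 to 24.3 and 20.6 to 23.7 FPKM. The sum of 6 fibroblast markers lay at 5.72 to 7.10 FPKM in ES2 siC and 23.4 to 31.0 in siI1, with 2 higher and 2 at 0. In MV3 it lay at 2.42 to 2.52 and 7.80 to 8.06 FPKM, with 2 higher and 1 at 0. It was 3.61 to 4.56 FPKM in A549 siC and 1.53 to 2.45 in siI1, and under 1 FPKM in PANC1. Of 5 endothelial markers, CDH5 alone reached 1 FPKM, in ES2, where it went from 9.6 ± 1.32 to 15.3 ± 0.993 FPKM (SD, n = 3 each). The sum of 5 leukocyte markers was at most 5.36 FPKM in A549 and under 1 FPKM in the other lines. Beside these calls, the shares of all genes higher and lower were 5.93% and 7.83% (A549), 10.5% and 13% (ES2), 16.3% and 19.5% (MV3), and 11.3% and 13.4% (PANC1). The part of these markers in the caveola values was not tested.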

How the data were processed

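Total RNA depleted of ribosomal RNA was sequenced in 24 libraries, 3 per group, described in the study as biological replicates. Per the labels and methods, the authors trimmed reads with Cutadapt 1.14, aligned them to hg38 with HISAT2 2.1.0, handled alignments with SAMtools 1.5, counted them per gene with featureCounts 1.5.3 and normalised with edgeR 3.30.3. The strand setting of the counting is not given in the sources used here. The authors deposited 1 table per line with an FPKM value per gene and library. The unit is not named in the files: value times length was a whole multiple of 1 step per library for all values (tolerance 0.001 reads), which gave back the reads. Deposited lengths of genes are in bases. The deposited log2 fold changes, p-values and FDR of the authors' own comparison were not used.

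Each line's genes averaging 0.5 FPKM or more were tested with limma 3.58.1 in R 4.3.3 on log2(FPKM + 0.5), with lmFit and eBayes with trend, two-sided, adjusted by Benjamini-Hochberg over all genes tested, at 0.05. Differences between lines in the knockdown effect were tested by a limma F test of the contrasts between line and knockdown, in a fit of 8 group means. Loci are from GENCODE release 44 (hg38), promoters from RefSeq (GRCh38.p14). Alternatives were pseudocounts of 0.1 and 1, other filters, same-sum rescaling, quantile normalisation, limma voom on recovered reads, a replicate block, each library left out, Cochran's Q and, added after seeing the data, total-read scaling and list counts without the 4 members picked on their response. The script was tested on simulated data. Replicates of a group differed beyond sampling noise (chi-square per gene 1.54 to 15.1 over 24 pairs), so each counted separately. Ranges of reads run from the lowest to the highest library.

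The members and lists were chosen with earlier results of these data known. Genes named are IGF2BP1, the members and cavins, locus neighbours of at least 0.5 FPKM, up to 4 called genes per other list with the largest mean change, and the 5 genes most like CAV1 and CAV2. Other tools were Python 3.11.15, numpy 2.4.6, pandas 2.3.3 and matplotlib 3.10.9.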

Additional observations from a re-analysis of the deposited data

Results flagged for a closer look

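Several members moved in opposite directions in different lines, with every siI1 library on one side of every siC library of its line. CAV1 had log2 fold changes of 0.60 in A549 and 0.71 in ES2 and of -0.37 in PANC1. EHD2 had 0.40 in ES2 and -0.32 in PANC1. PACSIN2 had -0.45 in A549, -0.21 in PANC1 (-0.14 without siI1 replicate 3) and 0.27 in ES2. These differences between lines were not tested, because the genes were picked on these values. For the cavins the difference between lines passed a limma F test, with adjusted p-values of 0.00121 for CAVIN1 and 0.00132 for CAVIN3. PANC1 was harvested at 96 h and the other lines at 72 h, so line and harvest time cannot be told apart there.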

How the results depend on the processing

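With CAV1, CAV2, EHD2 and PACSIN2 included, 12 of 25 caveola list genes tested passed the threshold in A549 and 11 of 23 in ES2. In MV3 the count was 11 of 24 and in PANC1 10 of 22. These 4 genes were picked on these values, so counts that include them are a description and carry no test. Without them the counts were 9 of 21, 8 of 19, 10 of 20 and 7 of 18 in that order. The lists themselves were also drawn up with earlier results of these data known. Over all genes the shares higher and lower were 5.93% and 7.83% in A549 and 10.5% and 13% in ES2. They were 16.3% and 19.5% in MV3 and 11.3% and 13.4% in PANC1. With the 4 genes included, the replicate block gave 8 in A549, 6 in ES2 and 6 in PANC1. In PANC1 the count was 6 without a filter and 16 after same-sum rescaling, where 13 remained without the 4 genes. The shares over all genes under these other settings are not given. Without 1 library the count with the 4 genes was 7 to 11 in A549 and 7 to 11 in ES2. It was 8 to 9 in MV3 and 4 to 6 in PANC1, and fewer libraries enter each of these fits. The count of genes that differed between lines was 11 and ranged from 9 to 14. Same-numbered siC and siI1 libraries did not deviate together (r from -0.06 to 0.07), so the replicate block pairs libraries by a number only. With it the adjusted p of CAVIN1 in A549 was 0.0703 and that of CAVIN3 was 0.0596 in ES2 and 0.0535 in PANC1, and the list calls without the 4 picked genes were 5, 4, 9 and 4 in A549, ES2, MV3 and PANC1, in place of 9, 8, 10 and 7. Quantile normalisation turned CAVIN1 in MV3 from -0.05 to 0.15 and in PANC1 from 0.17 to -0.09. The cause was not tested. Same-sum rescaling, which lowers the PANC1 median by construction, turned in that line CAV2 (-0.18), CAVIN1 (-0.58), CAVIN3 (-0.37), EHD4 (-0.53), EHD1 (-0.33), SRC (-0.67), DNM2 (-0.30), FLOT2 (-0.36), ITGB1 (-0.74), EPN2 (-0.31), CLTB (-0.59), AP2M1 (-0.31), TES (-0.60), CAPZA2 (-0.55), KDELR2 (-0.55), DNAJB4 (-0.26), ABCC4 (-0.57) and P3H2 (-0.45) below 0. ST7 and CAVIN4 in PANC1, which had no call, also turned below 0 under that rescaling. A549 was the least deeply sequenced line, and CAVIN3 rested there on 42 to 90 reads.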
